A study of Mus musculus with 12 samples.

Results

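Sinusoidal endothelial cells line the blood capillaries of the liver. The 33 transcripts described here form a list of gene symbols known for these cells and for endothelium in general, and all 33 were measured among 18820 genes on the arrays. They hold 9 scavenger receptors and other sinusoidal genes, 11 junction and general endothelial genes, 6 growth factor receptors, 5 genes of secreted factors and 2 transcription factors. RNA came from whole liver and from primary hepatocytes, the parenchymal cells taken out of the liver, of male C57BL/6 mice aged 7 to 8 weeks. WT animals were littermates with floxed Jnk1 (Jnk1 f/f) and intact Jnk2 (Jnk2+/+). JNKΔhepa animals lacked Jnk1 (Mapk8) in hepatocytes, through a Cre recombinase driven by the albumin promoter with alpha-fetoprotein enhancer elements, and lacked Jnk2 (Mapk9) in every cell. The endothelial cells of JNKΔhepa mice therefore lacked Jnk2, while their Jnk1 was not a target of the Cre. Each genotype was represented by 3 mice, and the labels give the same 6 mice for both tissues, so that there were 4 groups of 3 arrays.

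The sinusoidal endothelium has open pores, no continuous basement membrane and a set of scavenger receptors (stabilins, Lyve1, Fcgr2b and C-type lectins) that clear waste molecules from the blood. Its cells are held together by VE-cadherin and other junction proteins and are maintained by VEGF and angiopoietin signals through tyrosine kinase receptors. They also send signals to hepatocytes: Wnt2, Wnt9b and the Wnt enhancer Rspo3 come from endothelium near the central vein and sustain pericentral gene expression, and Bmp2 from endothelium sustains hepcidin. Many of these genes serve as markers of endothelium, also to judge how much of it is left among isolated hepatocytes.

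Values are deposited log2 array values, and a difference of 1 is a doubling. Their precision is limited by the number of arrays, 3 a group. Liver arrays had a median over all probe sets of 4.09 to 4.12 and hepatocyte arrays one of 3.22 to 3.28, so the tissues appear to have been normalised separately and a level set across tissues depends on that. Mapk9 values fell from 8.64, 8.69 and 8.59 in WT livers to 2.85, 2.33 and 3.02 in JNKΔhepa livers, and from 8.10, 7.74 and 8.05 to 2.62, 2.57 and 2.29 in hepatocytes. For Jnk2 this matched the labels on all 12 arrays.

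ETS factors are regulators that endothelial genes have in common. The stretches upstream of the members' start sites were therefore searched for the ETS core AGGAAG and its reverse complement CTTCCT. RefSeq windows (assembly GRCm38.p6) of 250 bases before a start were at hand for 19 of the 33 members, 21 windows in all. The core occurred in 11 of these 21 windows (52.4%), in Aqp1, Clec4g, Egfl7, Emcn, Eng, Flt1, Robo4, Stab1, Stab2 and Tie1, and in 29.5% of 32851 windows of all genes. AGATAA, a core bound by GATA factors such as the member Gata4, was on either strand in 0 of 21 windows and in 9.99% of all windows. AACAAT, a core bound by SOX factors such as the member Sox18, was on either strand in 2 of 21 windows (9.52%), those of Emcn and Tek, and in 9.42% of all windows. A match or its absence describes the letters of these windows and says nothing of binding. As examples of a scavenger receptor, a vessel guidance receptor and a VEGF receptor, the windows of Stab2 (chr10:87007943-87008192, minus strand), Robo4 (chr9:37401722-37401971, plus strand) and Flt1 (chr5:147726012-147726261, minus strand) follow 5′ to 3′ along the gene, with the ETS core or its complement in capitals.
Stab2: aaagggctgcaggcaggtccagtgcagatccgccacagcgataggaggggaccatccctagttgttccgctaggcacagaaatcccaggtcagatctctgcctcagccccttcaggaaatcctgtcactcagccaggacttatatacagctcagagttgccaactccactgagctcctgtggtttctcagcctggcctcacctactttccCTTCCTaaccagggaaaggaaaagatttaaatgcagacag
Robo4: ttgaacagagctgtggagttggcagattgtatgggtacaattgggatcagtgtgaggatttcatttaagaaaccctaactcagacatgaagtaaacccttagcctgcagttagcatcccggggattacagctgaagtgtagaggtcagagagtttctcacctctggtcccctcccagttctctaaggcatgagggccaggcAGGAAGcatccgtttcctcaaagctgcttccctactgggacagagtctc
Flt1: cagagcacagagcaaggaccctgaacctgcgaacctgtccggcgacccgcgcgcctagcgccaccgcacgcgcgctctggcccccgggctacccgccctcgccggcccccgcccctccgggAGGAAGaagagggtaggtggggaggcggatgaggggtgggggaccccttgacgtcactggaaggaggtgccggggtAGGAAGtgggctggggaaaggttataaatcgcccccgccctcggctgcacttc
The Stab2 window held the core once on the opposite strand, the Robo4 window once and the Flt1 window 2 times.

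The first comparison set isolated hepatocytes against whole liver. All 33 genes were lower in hepatocytes than in liver in both genotypes, and on each gene all 6 hepatocyte arrays lay below all 6 liver arrays. The median difference over the 33 genes was −1.54 in WT, which leaves 34.4% of the liver value, and −1.97 in JNKΔhepa, or 25.4%. The tissues appear to differ in scaling, and the median over all genes was itself −0.58 in WT and −0.60 in JNKΔhepa. All 33 members passed as lower in both genotypes by limma's moderated test (Benjamini-Hochberg adjusted p under 0.05 over all genes), but so did 85.6% of all genes in WT and 85.9% in JNKΔhepa, and all hepatocyte arrays lay below all liver arrays in 73.5% of all genes. After quantile normalisation of all 12 arrays together, where the median over all genes was 0.02 in WT and 0.01 in JNKΔhepa, 30 of 33 members passed as lower in each genotype, against 14.8% and 15.6% of all genes. Their medians were then −0.89 and −1.31. Under that scaling Gata4, Sox18 and Mmrn2 in WT, and Wnt2, Wnt9b and Gata4 in JNKΔhepa, did not pass. In whole tissue RNA, fewer cells of a type and less RNA per cell cannot be told apart.

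**Figure D1:**
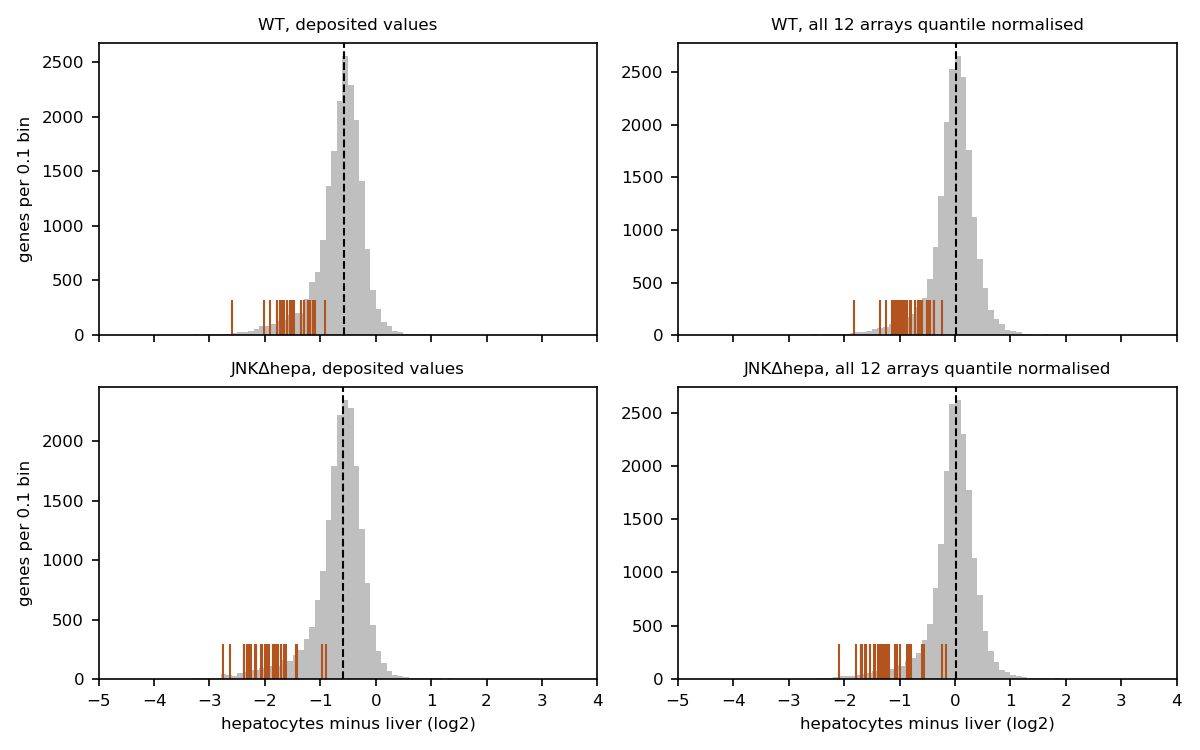
Histograms of the difference hepatocytes minus liver (log2) for all 18820 genes (grey, genes per bin on the y axis) with the 33 endothelial genes as ticks and the median of all genes as a dashed line, for WT (top) and JNKΔhepa (bottom), in deposited values (left) and after quantile normalisation of all arrays (right). The ticks lie left of the dashed line in each panel.

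The scavenger and sinusoidal genes kept 35.1% of their liver value at the median in WT hepatocytes and 25.4% in JNKΔhepa hepatocytes, and 9 of 9 passed as lower in both genotypes in deposited values and after quantile normalisation, where the shares kept were 54.8% and 38.2%. With each array centred on its median instead, Clec4g, Dnase1l3 and Gpr182 did not pass in WT (limma adjusted p = 0.0778, 0.0654 and 0.161). Stab2, a scavenger receptor for hyaluronan, read 8.72, 8.75 and 8.93 in WT livers and 7.16, 6.86 and 7.19 in WT hepatocytes, and 8.95, 8.91 and 8.84 and 6.90, 6.76 and 6.82 in the corresponding JNKΔhepa samples. Hepatocyte and liver arrays were well apart, and the difference was −1.73 in WT (limma adjusted p = 4.05e-08) and −2.08 in JNKΔhepa (adjusted p = 9.62e-09). Lyve1, another hyaluronan receptor, read 8.28, 7.66 and 8.15 in WT livers, 5.81, 6.27 and 6.00 in WT hepatocytes, 8.18, 7.86 and 8.42 in JNKΔhepa livers and 5.56, 5.37 and 5.26 in JNKΔhepa hepatocytes. Of its liver value 24.9% remained in WT, where only Rspo3 read lower, and 14.7% in JNKΔhepa, the lowest measured value of the 33 there. Clec4g, a C-type lectin of the sinusoids, differed by −1.18 in WT and −1.77 in JNKΔhepa. Dnase1l3, a secreted nuclease, differed by −1.21 and −1.97, and Gpr182, a chemokine scavenging receptor, by −1.21 and −1.66. Stab1, a scavenger receptor, the inhibitory Fc receptor gene Fcgr2b, Oit3 and the endocytic gene Ehd3 lay between −1.34 (Ehd3) and −1.69 (Stab1) in WT, and between −1.84 (Ehd3) and −2.32 (Oit3) in JNKΔhepa.

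Junction and general endothelial genes kept 34.3% at the median in WT and 25.8% in JNKΔhepa, and after quantile normalisation 10 of 11 passed as lower in WT and 11 of 11 in JNKΔhepa, with 53.8% and 43.1% kept. Cdh5, which encodes VE-cadherin, the adhesion molecule of endothelial junctions, read 8.55, 8.41 and 8.66 in WT livers, 7.06, 6.71 and 7.06 in WT hepatocytes, 8.66, 8.46 and 8.39 in JNKΔhepa livers and 6.54, 6.12 and 6.37 in JNKΔhepa hepatocytes. Its tissue difference was −1.60 in WT (limma adjusted p = 5.22e-07) and −2.16 in JNKΔhepa (adjusted p = 3.79e-08), with no overlap between the tissues. Pecam1, an adhesion protein of the same junctions, differed by −1.79 and −2.37. Cldn5, a tight junction protein, differed by −1.79 and −1.93, Esam, an adhesion molecule, by −1.35 and −1.85, and Ptprb, the phosphatase that acts on VE-cadherin and Tek, by −1.70 and −2.27. The sialomucin gene Emcn, the secreted Egfl7, the guidance receptor gene Robo4, Ramp2, a partner of the adrenomedullin receptor, and the water channel gene Aqp1 ranged from −1.22 (Robo4) to −1.61 (Emcn) in WT and from −1.66 (Ramp2) to −2.05 (Emcn) in JNKΔhepa. Mmrn2, a matrix protein of vessels, differed by −1.13 in WT and −1.71 in JNKΔhepa. After quantile normalisation its WT value was −0.37 (limma adjusted p = 0.228).

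The 6 growth factor receptor genes kept 31.4% at the median in WT and 22.2% in JNKΔhepa, and all 6 passed as lower in deposited values and after quantile normalisation, where 50.2% and 37.6% were kept. Kdr, the main VEGF receptor of endothelium, read 8.31, 8.37 and 8.41 in WT livers, 6.76, 6.36 and 6.85 in WT hepatocytes, 8.38, 8.34 and 8.32 in JNKΔhepa livers and 6.50, 5.99 and 5.78 in JNKΔhepa hepatocytes. Its tissue differences were −1.71 (limma adjusted p = 1.56e-06) and −2.25 (adjusted p = 1.37e-07). The liver arrays of Kdr lay within a narrow band and the hepatocyte arrays were spread more widely below it. Flt1, a decoy and signalling receptor for VEGF, differed by −1.66 and −1.99, Flt4, the receptor for VEGF-C, by −1.72 and −2.18, and Eng, a TGF-beta and BMP co-receptor, by −1.69 and −2.28. Tek, the angiopoietin receptor, differed by −1.29 in WT and −2.16 in JNKΔhepa. Its relative Tie1 had the smallest difference of the 6 in both genotypes (−1.20 and −1.41).

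In WT the secreted factors and transcription factors held both the largest and the smallest tissue differences of the 33, those of Rspo3 and Gata4. Rspo3, which strengthens Wnt signals, read 6.08, 6.22 and 5.99 in WT livers, 3.63, 3.22 and 3.68 in WT hepatocytes, 6.09, 5.92 and 5.83 in JNKΔhepa livers and 3.51, 3.04 and 3.39 in JNKΔhepa hepatocytes. It was at least 6.02-fold lower in WT hepatocytes (limma adjusted p = 2.43e-08) and at least 6.21-fold lower in JNKΔhepa hepatocytes (adjusted p = 1.8e-08). Here and below a fold is given as a lower bound where at least 1 array of the group with less signal was under that array's median probe set. Bmp2 differed by −1.92 and −2.37, and F8, coagulation factor VIII, by −1.55 and −1.85. Wnt2 read 4.85, 5.02 and 5.73 in WT livers, 3.75, 3.53 and 3.89 in WT hepatocytes, 4.85, 4.94 and 5.62 in JNKΔhepa livers and 3.82, 3.57 and 3.70 in JNKΔhepa hepatocytes. In both genotypes liver replicate 3 stood above the other livers, and the tissue difference was −1.48 and −1.44. Wnt9b was dim in every group, so that its differences of −1.13 and −0.96 are not exact in size. Gata4, a transcription factor that keeps the sinusoidal phenotype, read 6.92, 6.80 and 6.70 in WT livers and 5.72, 5.75 and 6.20 in WT hepatocytes, and 6.75, 6.57 and 6.58 and 6.19, 5.29 and 5.72 in JNKΔhepa. About 53% of its liver value remained in WT and 53.6% in JNKΔhepa, the most of all 33 members in both genotypes, and after quantile normalisation its differences were −0.24 (limma adjusted p = 0.337) and −0.16 (adjusted p = 0.523). Sox18, a factor of vessel development, differed by −1.09 and −1.61.

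**Figure D2:**
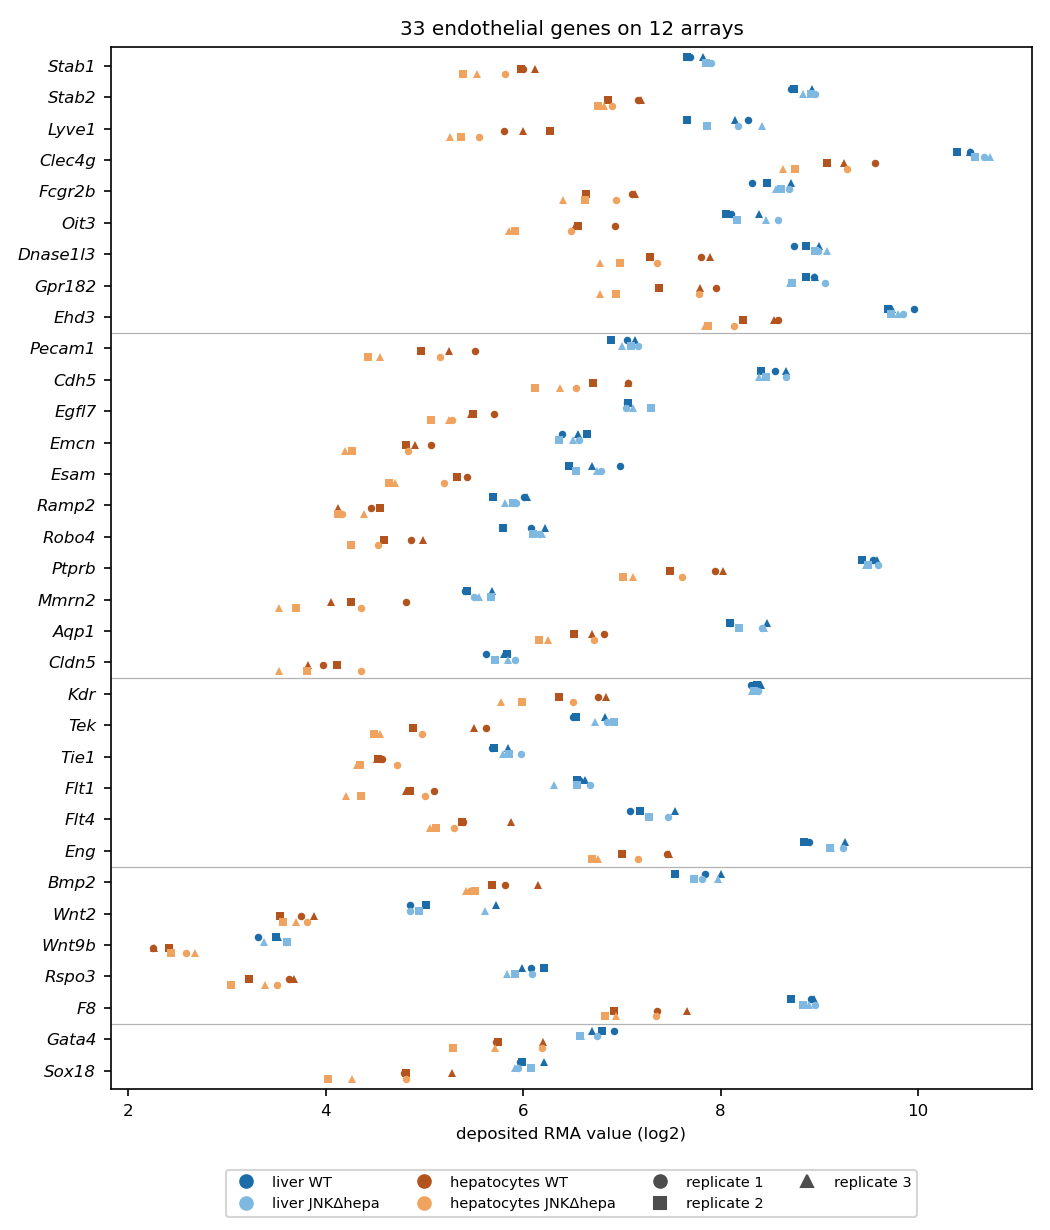
Deposited RMA values (log2, x axis) of the 33 endothelial genes on the 12 arrays, 1 point per array, with colour for tissue and genotype, symbol for replicate, and lines between the 5 role groups. On every gene the liver points lie to the right of all hepatocyte points.

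The loss of endothelial transcripts was set beside markers of the other cells of the liver, mouse by mouse. The median over the 33 genes of hepatocytes minus liver was −1.37, −1.59 and −1.60 in the 3 WT mice and −1.74, −2.06 and −2.11 in the 3 JNKΔhepa mice. At the median, at most 38.6% of the liver value was thus left in a WT mouse and at most 30.0% in a JNKΔhepa mouse. The genotypes did not overlap. After quantile normalisation these medians were −0.73, −0.95 and −0.99 for the WT mice and −1.09, −1.37 and −1.41 for the JNKΔhepa mice. Under that scaling up to 60.2% was left in a WT mouse and up to 47.0% in a JNKΔhepa mouse. For the 15 Kupffer cell and macrophage markers the WT mice had deposited-scale medians of −1.68, −2.05 and −1.99 and the JNKΔhepa mice −2.22, −2.51 and −2.55. Those of the 15 stellate cell and fibroblast markers were −2.19, −2.28 and −2.02 for the WT mice, and −2.36, −2.64 and −2.33 for the JNKΔhepa mice. On the deposited scale neither list overlapped between the genotypes. The median over all genes did not overlap there either (−0.587, −0.586 and −0.579 for the WT mice against −0.592, −0.609 and −0.595). After quantile normalisation the Kupffer list stayed apart, whereas the stellate list overlapped (−1.49, −1.54 and −1.36 for the WT mice against −1.52, −1.92 and −1.63). The 12 lymphocyte markers lay in the other order, at −1.66, −1.64 and −1.80 in the WT mice and −1.42, −1.51 and −1.43 in the JNKΔhepa mice, without overlap. Their order rests on the median over genes. The list's mean level was 3.88 in WT and 3.86 in JNKΔhepa livers, and 2.38 and 2.37 in hepatocytes. On each hepatocyte array that mean was at most 2.45, under the array's median probe set, so these values are not exact. The 8 cholangiocyte markers, at −0.87, −1.11 and −1.08 and −1.17, −1.16 and −0.79, overlapped. The medians of the 18 hepatocyte markers lay between −0.22 and −0.12 in all 6 mice, with Alb, the albumin gene, at −0.20 in WT and −0.10 in JNKΔhepa, values above 0 when arrays were centred on their median. The defining markers of these other cells were measurable in the hepatocyte preparations: Clec4f of Kupffer cells read 7.23, 6.48 and 6.92 in the WT preparations and 6.48, 6.05 and 5.86 in those from JNKΔhepa mice, and Lrat of stellate cells 5.35, 5.19 and 5.53 and 4.78, 4.65 and 5.18.

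**Figure D3:**
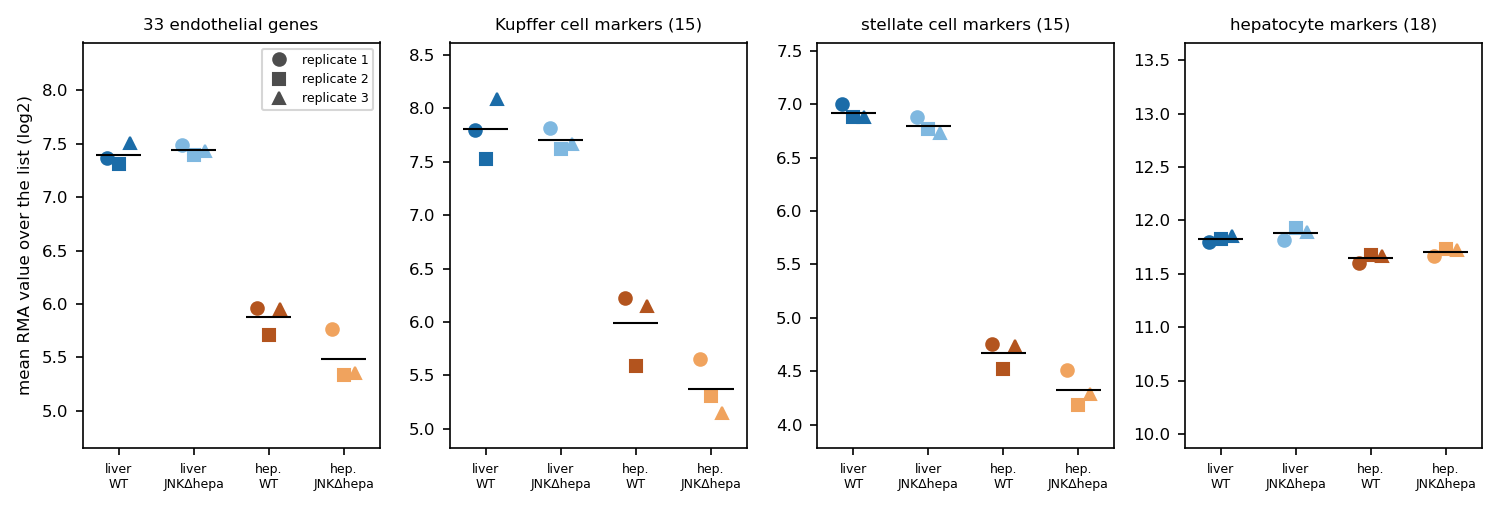
Mean deposited value (log2, y axis) of each gene list on each of the 12 arrays, 1 point per array, with the arrays grouped by tissue and genotype on the x axis and a line at each group's mean. The endothelial, Kupffer, stellate and hepatocyte lists are each lower on every hepatocyte array than on every liver array. The hepatocyte list stays between 11.60 and 11.93.

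A further 48 measured endothelial genes outside the 33, of 49 listed, were lower as well. All 48 passed as lower in hepatocytes in both genotypes by limma (adjusted p under 0.05), with medians of −1.51 and −1.80. The shares over all genes were 85.6% and 85.9%. After quantile normalisation 33 passed as lower in WT and 36 in JNKΔhepa, beside 14.8% and 15.6% of all genes. Those with the largest differences were Ednrb, the endothelin B receptor, which is also made by stellate cells (−2.96 in WT and at least 11.6-fold lower in JNKΔhepa), Vwf, von Willebrand factor of larger vessels (at least 5.71-fold and 6.68-fold lower), and Sparcl1, a secreted matrix-associated protein (at least 4.64-fold and 7.41-fold lower). A list of 17 genes of endothelial stress and of continuous or capillarised endothelium, the form that sinusoids take on in fibrosis, also fell. In both genotypes 17 of 17 passed as lower, 12 and 15 after quantile normalisation. They include Plvap, the diaphragm protein of fenestrae, at −2.03 and −2.57, and Cd34, a sialomucin of continuous vessels, at least 5.32-fold and 6.05-fold lower. The list overlaps with the 48 genes above, to which Plvap, Cd34 and Vwf also belong.

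The second comparison asked whether the endothelial transcripts of whole liver differ between JNKΔhepa and WT mice. None of the 33 passed limma's threshold (0 of 33, adjusted p from 0.592 to 0.998), where 0.925% of all genes passed. At an unadjusted p under 0.05 there were 0 of 33, against 12.5% of all genes. The median log2 change over the members was 0.07, beside 0.02 over all genes, and the values ran from −0.17 for Gata4 to 0.22 for Oit3. The 95% interval was −0.58 to 0.23 for Gata4, −0.37 to 0.34 for Kdr and −0.16 to 0.60 for Oit3. With 3 mice a genotype, changes within these bounds were not excluded. Stab1 was higher on all JNKΔhepa liver arrays (7.90, 7.86 and 7.89) than on the WT liver arrays (7.69, 7.66 and 7.82), by 0.16 (SE 0.104, limma adjusted p = 0.592). Clec4g likewise read 10.67, 10.58 and 10.73 against 10.53, 10.39 and 10.53, a difference of 0.18 (SE 0.156, adjusted p = 0.728). These were the 2 members without overlap between the genotypes, where 20.4% of all genes did not overlap. Kdr, Cdh5 and Ptprb differed by −0.01, −0.04 and 0.0017, and the secreted factors Bmp2, Wnt2 and Rspo3 by 0.04, −0.06 and −0.15, all with overlapping arrays. Of the 48 other endothelial genes 0 passed, and 4 had an unadjusted p under 0.05. Vwf had 5.32, 5.42 and 5.41 in JNKΔhepa livers and 5.03, 4.99 and 5.31 in WT, a log2 change of 0.28 (limma adjusted p = 0.253). Markers of the other cell types did not pass in liver either: 0 of 15 Kupffer cell markers and 0 of 15 stellate markers did, with −0.61 for Lrat (adjusted p = 0.0767).

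In isolated hepatocytes the endothelial genes read lower in JNKΔhepa than in WT preparations for 32 of 33 members, but none passed over all genes. The median log2 change was −0.44, beside −0.0018 over all genes. By limma 0 of 33 passed (adjusted p from 0.0568 to 0.979), where 0.84% of all genes did, while 24 of 33 had an unadjusted p under 0.05. Of these, 23 were lower, a direction and threshold met by 6.71% of all genes, and Wnt9b was higher. The JNKΔhepa arrays were all lower than the WT arrays on 10 members (Stab1, Lyve1, Oit3, Ehd3, Cdh5, Egfl7, Esam, Robo4, Flt4 and Bmp2), as on 7.32% of all genes. The 48 endothelial genes outside the members shifted less, with a median of −0.24. Of them 40 lay below 0 and 8 above, 0 passed, and on 9 the JNKΔhepa arrays were all lower.

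Scavenger, junction, receptor and transcription factor genes were among those with the lowest values. Cdh5 read 6.54, 6.12 and 6.37 in JNKΔhepa hepatocytes against 7.06, 6.71 and 7.06 in WT, a log2 change of −0.60 (SE 0.132, limma adjusted p = 0.0568). Stab1 read 5.82, 5.39 and 5.54 against 6.00, 5.98 and 6.12, a change of −0.45 (SE 0.104, adjusted p = 0.0667). Ehd3 read 8.13, 7.87 and 7.85 against 8.59, 8.23 and 8.54, a change of −0.50 (SE 0.116, adjusted p = 0.0669). The genotypes did not overlap on these 3 genes, which came closest to the threshold. Each passed under some alternatives. Cdh5 and Ehd3 did so with the replicate number as a block (limma adjusted p = 0.0245 and 0.0283), although the labels tie no number to both genotypes. They also passed with an intensity trend and robust prior (limma adjusted p = 0.0311 and 0.0338). Stab1 passed after quantile normalisation (limma adjusted p = 0.0493), and all 3 where only genes above the array median were tested. The largest value was that of Tek (−0.66, SE 0.179), with 4.97, 4.49 and 4.55 on the JNKΔhepa arrays and 5.62, 4.89 and 5.50 on the WT arrays, an overlap by 1 JNKΔhepa array. Lyve1 (−0.63), with 5.56, 5.37 and 5.26 against 5.81, 6.27 and 6.00, Dnase1l3 (−0.62), Sox18 (−0.59), Oit3 (−0.59), Ptprb (−0.57) and Kdr (−0.56) followed. Tie1 (−0.08), Cldn5 (−0.07), Ramp2 (−0.15), Gata4 (−0.16), Rspo3 (−0.20) and Wnt2 (−0.03) were nearest to 0. Of these, Rspo3 had 1 array of each genotype under that array's median probe set, so its change is not exact. Wnt2 (means 3.72 in WT and 3.69 in JNKΔhepa) and Cldn5 (3.97 and 3.90) read little above the array medians of 3.22 to 3.28. On the dim Wnt9b the JNKΔhepa arrays read 2.59, 2.43 and 2.68 and the WT arrays 2.25, 2.41 and 2.27 (0.26, not exact, adjusted p = 0.308), the only member above 0.

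Several further members showed how the preparations lay to each other. Oit3 read 6.49, 5.91 and 5.86 on the JNKΔhepa hepatocyte arrays and 6.93, 6.56 and 6.53 on the WT ones, and Bmp2 5.46, 5.52 and 5.43 against 5.81, 5.68 and 6.15. For Esam the values were 5.19, 4.64 and 4.70 against 5.43, 5.33 and 5.33, and for Robo4 4.53, 4.26 and 4.26 against 4.86, 4.59 and 4.98. All JNKΔhepa arrays of these 4 genes lay below the WT arrays, with changes of −0.59 (SE 0.175), −0.41 (SE 0.134), −0.52 (SE 0.153) and −0.46 (SE 0.128). Egfl7 (5.28, 5.07 and 5.24 against 5.70, 5.49 and 5.47, change −0.36) and Flt4 (5.30, 5.12 and 5.06 against 5.39, 5.38 and 5.88, change −0.39) were likewise apart. On Kdr the JNKΔhepa arrays read 6.50, 5.99 and 5.78 and the WT arrays 6.76, 6.36 and 6.85, and on Pecam1 5.15, 4.43 and 4.56 against 5.51, 4.96 and 5.25. In both genes JNKΔhepa replicate 1 fell among the WT arrays and replicates 2 and 3 below them. Gpr182 read 7.78, 6.94 and 6.78 against 7.95, 7.38 and 7.79 and Dnase1l3 7.35, 6.98 and 6.78 against 7.80, 7.28 and 7.89, with the same order. Gata4 read 6.19, 5.29 and 5.72 against 5.72, 5.75 and 6.20, with overlapping genotypes. The changes of the members not yet given were −0.53 for Pecam1, −0.54 for Gpr182, −0.51 for Mmrn2, −0.50 for Emcn, −0.44 for Eng, −0.41 for Clec4g, −0.40 for Flt1, −0.30 for Fcgr2b, −0.30 for Aqp1, −0.27 for F8 and −0.24 for Stab2.

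**Figure D4:**
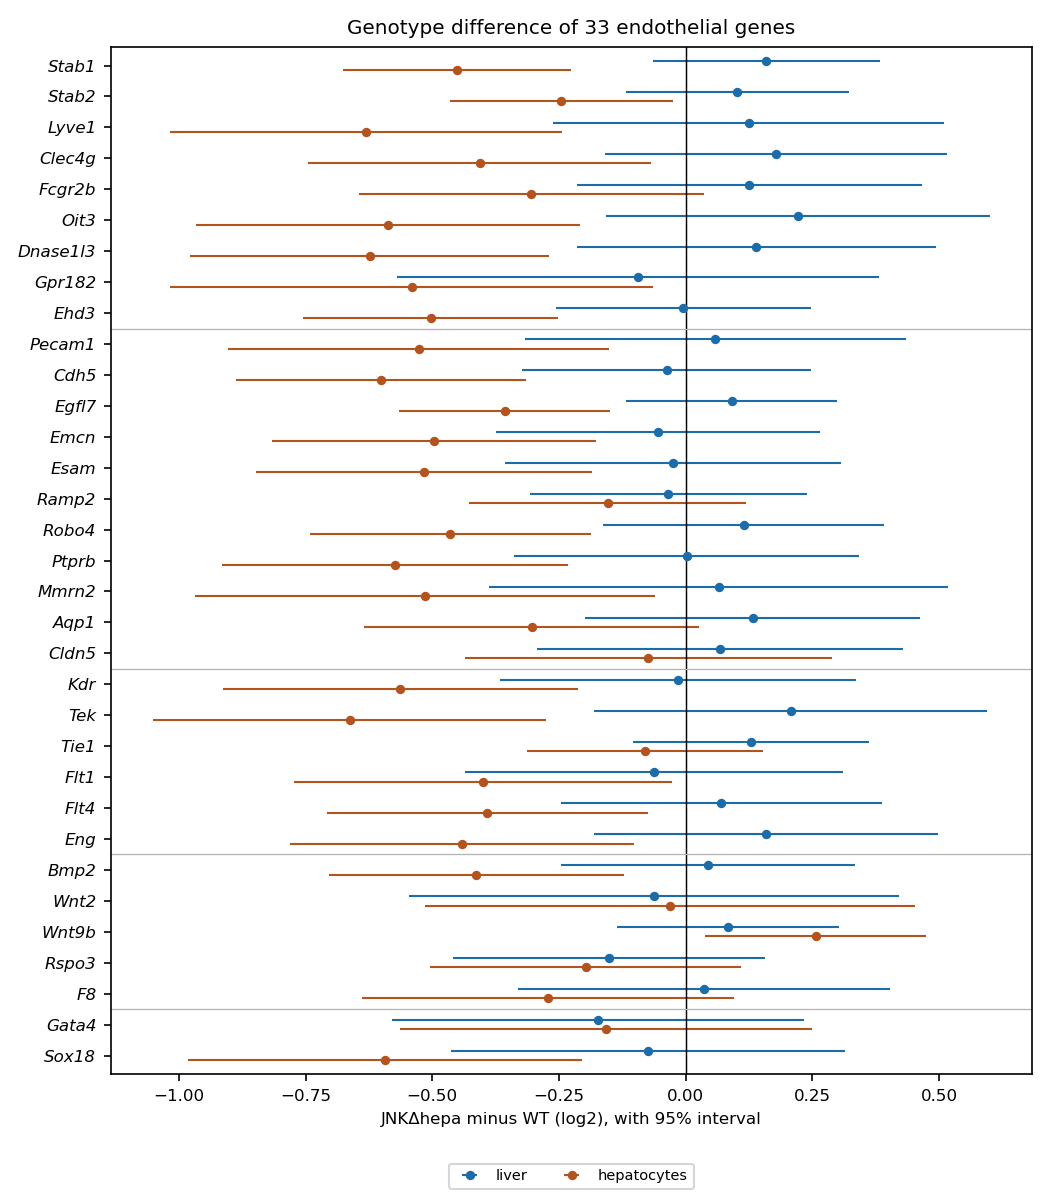
Log2 change JNKΔhepa minus WT (x axis) of the 33 endothelial genes in liver (blue) and in hepatocytes (orange), points with 95% intervals from the limma fit, and lines between the role groups. The liver points lie on both sides of 0, from −0.17 to 0.22, and the hepatocyte points lie below 0 for all genes but Wnt9b.

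Preparations of the same genotype differed from each other more on these genes than at the median over all genes. The median SD of the members within a group was 0.231 in WT and 0.270 in JNKΔhepa hepatocytes, beside 0.132 and 0.121 over all genes, whereas in liver it was 0.127 and 0.0977, beside 0.112 and 0.0998. Among JNKΔhepa hepatocytes, replicate 1 was the highest on 30 of 33 members, and among WT hepatocytes replicate 2 was the lowest on 22 of 33. Averaged over the 33 genes, the WT preparations stood at 5.96, 5.71 and 5.95 and the JNKΔhepa preparations 5.77, 5.33 and 5.36, so that JNKΔhepa replicate 1 lay above WT replicate 2. The SD of this average was 0.142 in WT and 0.246 in JNKΔhepa hepatocytes. For the average of the Kupffer list it was larger, 0.347 and 0.260, so such spread was not particular to the endothelial genes. Without JNKΔhepa replicate 1, limma called 14 members lower (1.07% of all genes) and the median was −0.59. Those were Stab1, Clec4g, Oit3, Dnase1l3, Gpr182, Ehd3, Pecam1, Cdh5, Emcn, Esam, Ptprb, Kdr, Flt1 and Sox18. Without WT replicate 2 it called 7 lower (Kdr, Tek, Cdh5, Dnase1l3, Ehd3, Robo4 and Ptprb; 1.3% of all genes), and without any other single hepatocyte array it called 0.

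Kupffer and stellate cell markers moved with this difference, while lymphocyte and cholangiocyte markers were near 0. The mean level of the 15 Kupffer cell markers was 6.22, 5.59 and 6.15 in the WT preparations and 5.66, 5.31 and 5.15 in the JNKΔhepa ones, and 14 of the 15 lay below 0 (median −0.75). The 15 stellate markers averaged 4.75, 4.52 and 4.73 in WT preparations and 4.51, 4.18 and 4.28 in JNKΔhepa ones, with 14 of 15 below 0 (median −0.33). In these lists C1qb, a complement subunit made by macrophages, fell by limma (7.05, 6.93 and 6.33 against 8.14, 7.52 and 7.88, log2 change −1.08, adjusted p = 0.0225), and so did Ecm1, a secreted matrix protein (6.38, 6.20 and 6.12 against 7.13, 6.70 and 7.01, −0.71, adjusted p = 0.01). With 1 array left out, the limma adjusted p of C1qb rose past the threshold for WT replicates 1 (0.108) and 3 (0.0856) and for JNKΔhepa replicates 2 (0.0599) and 3 (0.0748). For Ecm1 it did so for WT replicate 3 (0.0516) and for JNKΔhepa replicates 2 (0.0564) and 3 (0.0606). With only the 6 hepatocyte arrays in the fit both calls were lost too (0.0928 and 0.0807). The lymphocyte markers had a median of −0.02 with 7 of 12 below 0, and the cholangiocyte markers one of 0.06 with 2 of 8 below 0. Both lists averaged under each array's median probe set in the hepatocyte preparations (at most 2.45 and 2.95). Clec4f differed by −0.75 (adjusted p = 0.088). The hepatocyte markers averaged 11.60, 11.68 and 11.66 in WT preparations and 11.67, 11.73 and 11.72 in JNKΔhepa ones, with 0 of 18 called. How much of the endothelial difference goes with the makeup of the preparations was not tested.

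The third comparison asked whether the genotype difference itself differed between hepatocytes and liver. By limma's interaction term 0 of 33 members passed (adjusted p from 0.38 to 0.996), where 0.0106% of all genes, 2 genes, did. At an unadjusted p under 0.05 there were 18 members, all with the lower value in hepatocytes, a direction and threshold met by 4.57% of all genes, and the median over the 33 was −0.46 beside −0.02 over all genes. The largest differences were in Tek (−0.87, SE 0.254, adjusted p = 0.464) and Oit3 (−0.81, SE 0.247, adjusted p = 0.507). Stab1 had the smallest p (−0.61, SE 0.147, adjusted p = 0.38): its JNKΔhepa arrays were all higher in liver and all lower in hepatocytes. Wnt2 (0.03), Rspo3 (−0.05) and Gata4 (0.02) were near 0, where Wnt2 and Rspo3 were dim in hepatocytes.

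The genes that answer to endothelial Wnt signals were examined next, in hepatocytes and liver alike. Of 19 measured targets, 18 passed as lower in isolated hepatocytes in each genotype (limma adjusted p under 0.05), where 85.6% and 85.9% of all genes did, so that the count is near that of all genes. After quantile normalisation 10 passed as lower in WT and 11 in JNKΔhepa, beside 14.8% and 15.6% of all genes. Slc1a2, a glutamate transporter of pericentral hepatocytes, read 10.22, 9.92 and 10.19 in WT livers and 6.81, 6.71 and 6.82 in WT hepatocytes, and 9.79, 10.01 and 9.93 and 5.84, 6.68 and 6.45 in JNKΔhepa, differences of −3.33 and −3.59. Lgr5, the R-spondin receptor, went from 7.56, 7.79 and 7.29 in WT livers to 5.29, 4.54 and 5.23 in WT hepatocytes, and from 7.56, 7.54 and 7.12 to 3.79, 4.36 and 4.28 in the JNKΔhepa samples, differences of −2.53 and −3.26. Hepatocyte arrays lay far below liver arrays for both genes. Rhbg, an ammonium transporter, differed by −2.50 and −2.65, Glul, glutamine synthetase of the pericentral rim, by −1.94 and −2.04, and Axin2, a feedback inhibitor of the pathway, by −0.86 and −1.20. Between genotypes 0 of 19 passed in liver and 0 of 19 in hepatocytes (1 and 3 at an unadjusted p under 0.05). In hepatocytes Lgr5 was lower on every JNKΔhepa array (−0.88, limma adjusted p = 0.0872), while Glul (0.01) and Axin2 (−0.09) overlapped. The 14 Wnt and R-spondin receptor genes had 0 calls by genotype. In that list Fzd4, a Wnt receptor also found on endothelium, and Rnf43, which removes Wnt receptors from the surface, differed by −1.45 and −1.25 between the tissues in WT and by −1.24 and −1.41 in JNKΔhepa.

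For the targets of endothelial BMP the direction between the tissues depended on the scaling. Of 10 targets, 4 passed as lower in each genotype in deposited values, fewer than the 85.6% and 85.9% of all genes. After quantile normalisation 0 were lower, while 2 in WT and 5 in JNKΔhepa passed as higher, as did 13.6% and 14.3% of all genes. Hamp, which encodes hepcidin, read 12.11, 12.26 and 12.10 in WT livers and 11.58, 11.67 and 11.84 in WT hepatocytes (−0.46, limma adjusted p = 0.00675), and 12.06, 12.04 and 11.80 and 11.53, 12.10 and 11.92 in JNKΔhepa (−0.11, adjusted p = 0.433). Bmp2 fell in the same samples by 1.92 and 2.37. Smad6, an inhibitor of BMP signals, differed by −0.99 and −1.25, Id3, a BMP-induced regulator, by −0.71 and −0.78, and Bambi, a decoy BMP receptor, by −0.85 and −0.58. With arrays centred on their median Hamp and Id3 in both genotypes and Bambi in JNKΔhepa were higher in hepatocytes instead, and so was Bambi in JNKΔhepa after quantile normalisation. Between the genotypes Atoh8, a transcription factor induced by BMP, rose in liver, from 6.75, 6.86 and 6.55 in WT to 7.48, 7.27 and 7.38 in JNKΔhepa (0.66, SE 0.099, limma adjusted p = 0.00701), without overlap. It was the only one of the 10 to pass by genotype. In hepatocytes Atoh8 differed by 0.28 (adjusted p = 0.256). Hamp differed by −0.19 in liver and 0.16 in hepatocytes, with arrays that overlapped in hepatocytes. The 13 BMP receptors and genes of the hepcidin machinery had 0 calls by genotype in either tissue (1 in each at an unadjusted p under 0.05).

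**Figure D5:**
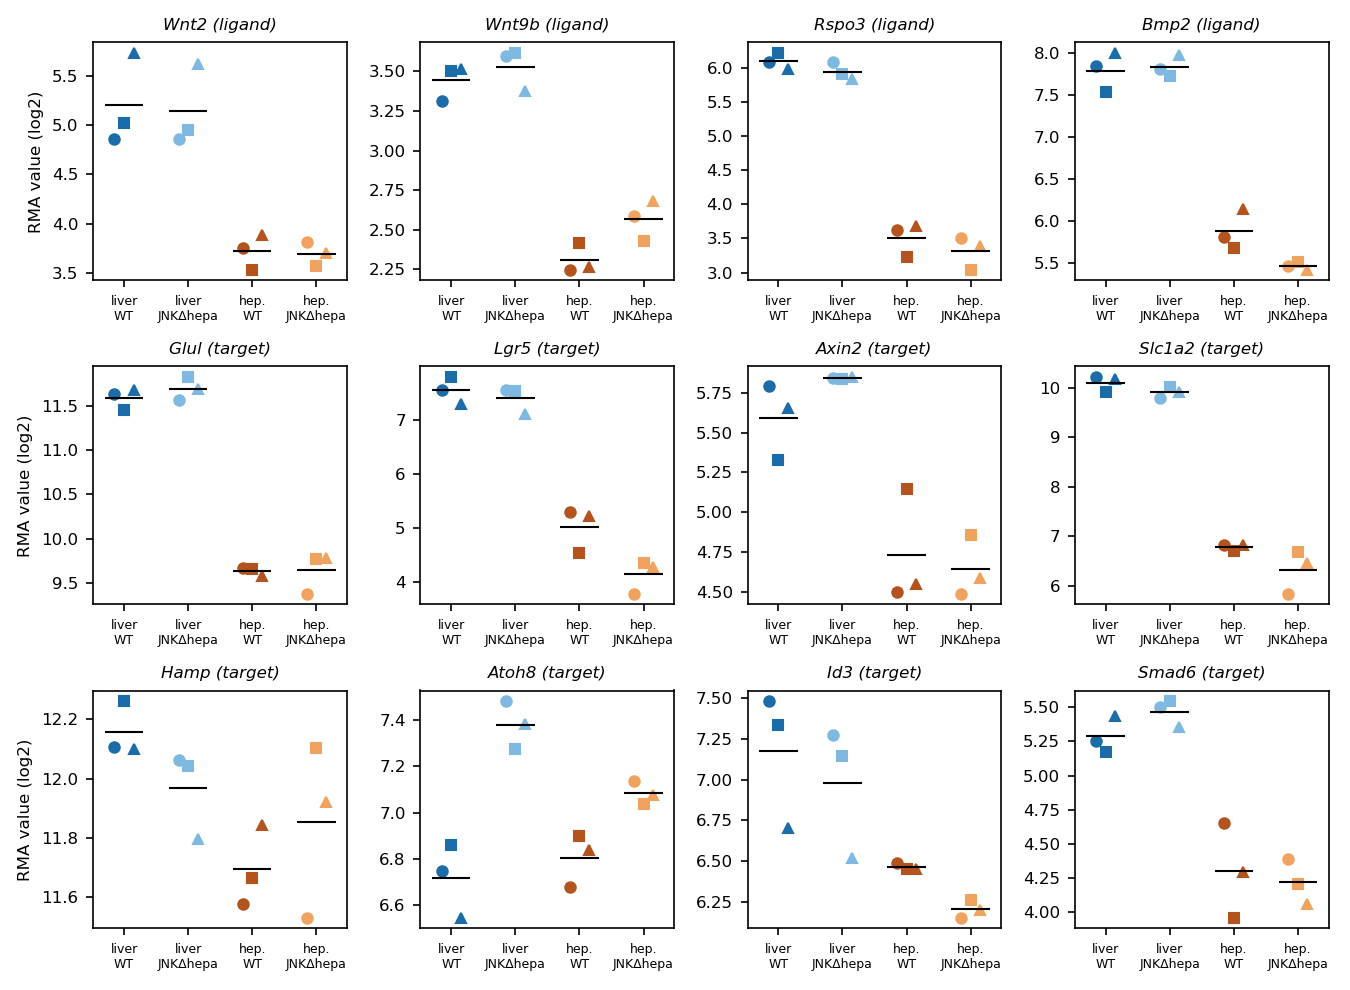
Deposited values (log2, y axis, its range differs between panels) of endothelial ligand genes and of hepatocyte genes that respond to them on the 12 arrays, 1 point per array (circle, square and triangle for replicates 1, 2 and 3), in the 4 groups on the x axis, with a line at each group's mean. Rspo3, Bmp2 and Glul are lower on every hepatocyte array than on every liver array, while Hamp stays between 11.53 and 12.26.

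The 26 ligands, co-receptors and partners of the VEGF, angiopoietin, Notch and endothelial BMP pathways that are not members had 0 calls by genotype in liver and 0 in hepatocytes (1 and 4 at an unadjusted p under 0.05). Vegfa, the VEGF that hepatocytes themselves make, read 9.02, 9.14 and 9.17 in WT livers, 8.99, 9.07 and 8.95 in JNKΔhepa livers, 8.64, 8.82 and 8.83 in WT hepatocytes and 8.85, 8.80 and 8.90 in JNKΔhepa hepatocytes. It differed by −0.35 between the tissues in WT (limma adjusted p = 0.00178) and by −0.15 in JNKΔhepa (adjusted p = 0.0991), and was higher in hepatocytes in both genotypes after quantile normalisation or with arrays centred on their median. Between tissues 25 of the 26 passed as lower in each genotype, beside 85.6% and 85.9% of all genes. After quantile normalisation 10 passed as lower in WT and 11 in JNKΔhepa (14.8% and 15.6% of all genes), and 2 and 3 as higher (13.6% and 14.3%). The largest differences were in Gdf2, which encodes BMP9, a ligand of endothelial receptors made by stellate cells (at least 8.45-fold and 8.37-fold lower), Bmp10, its relative (at least 4.6-fold and 6.6-fold lower), and Hgf, a stellate cell ligand for hepatocytes (−2.08 and −2.71).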

How the data were processed

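RNA of whole liver and primary hepatocytes was hybridised to 12 whole-transcript arrays of 1 colour (Ambion WT Expression kit, RNA integrity number above 8.0, per the labels' protocols). The deposited log2 values, a scale read from their range, were made by the authors with RMA (background correction, quantile normalisation, probe-set summary), per the submitters' processing notes. For the log base, software, probe-set definition and genome build, the sources used here do not state them. Of 35556 probe sets, 21218 had 1 gene symbol, 1881 several, and 12457 are not named here. The brightest probe set by mean stood for each of 18820 genes. The members Clec4g and Ramp2 had another, dim probe set.

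Group means were fitted to all 12 arrays with limma 3.58.1 (R 4.3.3; 8 residual and 4.76 prior degrees of freedom) and 5 contrasts were tested, two-sided, with Benjamini-Hochberg adjustment over all genes and a threshold of 0.05. The script was tested on simulated data. The members and lists were chosen with earlier results of these data known. All members could be named. From the other lists the rule took up to 4 genes with the smallest p past the threshold by genotype. It also took up to 3 with the largest tissue difference, and always Mapk8, Mapk9, Vegfa, Hamp, Glul, Axin2, Lgr5, Alb, Clec4f, Lrat and Vwf. Lists of cholangiocyte and lymphocyte genes had 0 limma calls by genotype in either tissue (at an unadjusted p under 0.05, 2 and 3 in liver and 1 and 0 in hepatocytes). The dimness rule for lower bounds was set after values were seen. The labels pair liver and hepatocytes by mouse; the deviations of such pairs from their group means correlated at −0.0133 to 0.0982. Python 3.11.15 with matplotlib 3.10.9 and pandas 2.3.3 drew the figures.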

Additional observations from a re-analysis of the deposited data

Results flagged for a closer look

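Stab1 stood out because its genotype difference pointed in opposite directions in the tissues on every array: JNKΔhepa was above WT on all liver arrays and below WT on all hepatocyte arrays. The difference between the effects was −0.61, with an adjusted p of 0.38 by the interaction term of the limma fit across all genes. In liver alone Stab1 differed by 0.16 (SE 0.104, limma adjusted p = 0.592). Liver arrays did not overlap between the genotypes on 20.4% of all genes, and JNKΔhepa hepatocyte arrays were all lower on 7.32%. How many of all genes met both was not counted.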

How the results depend on the processing

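Precision is limited by 3 arrays a group. In hepatocytes the number of members called lower between the genotypes went from 0 to 3 when only genes above the array median were tested (Stab1, Cdh5 and Ehd3; 247 genes called in all), 1 after quantile normalisation of all arrays (Stab1), 2 with the replicate block by number (Cdh5 and Ehd3), 2 with an intensity trend and robust prior (Cdh5 and Ehd3), and 0 to 14 with 1 array left out. With only the 6 hepatocyte arrays 77 genes were called in all, and with 1 array left out 61 to 387. In liver array weights gave 408 called genes and leaving out 1 array 80 to 208, with 0 members in each alternative. For the interaction array weights gave 4 genes and leaving out 1 array 1 to 7, with 0 members. The median over the members with 1 array left out ran from −0.01 to 0.12 in liver, −0.59 to −0.37 in hepatocytes and −0.64 to −0.41 for the interaction, and between the tissues from −1.61 to −1.46 in WT and −2.13 to −1.84 in JNKΔhepa, with 33 of 33 members lower each time.

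Between the tissues the scaling sets the split of all genes: in WT 113 were called higher and 16118 lower in deposited values, 2554 and 2782 after quantile normalisation, and 8774 and 1852 with arrays centred on their median; in JNKΔhepa the figures were 116 and 16166, 2683 and 2936, and 9406 and 1959. Testing only genes above the array median left 9431 and 9565 lower. The members' median became −0.89 and −1.31 after quantile normalisation and −0.70 and −1.10 with centring, where 27 and 31 members passed as lower and the median over all genes was 0.26 and 0.28. Genes outside the 33 whose tissue difference changed sign were, in WT, Vegfa after quantile normalisation (0.19), and with centring Vegfa (0.49), Id3 (0.12), Asgr2 (0.31), Hnf4a (0.31), Mapk8 (0.041), Mapk9 (0.16), Hamp (0.37) and Alb (0.64). In JNKΔhepa they were Atoh8 (0.38), Bambi (0.29), Hnf4a (0.034) and Vegfa (0.38) after quantile normalisation, and with centring Atoh8 (0.58), Bambi (0.29), Id3 (0.099), Acvr1 (0.012), Asgr2 (0.29), Hnf4a (0.60), Mapk9 (0.63), Vegfa (0.72), Hamp (0.76) and Alb (0.77). Both alternatives shift every value by construction. No member changed sign between the tissues under any alternative.

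The replicate block by mouse left 33 of 33 members lower in each genotype and changed no member call. The labels do not tie a replicate number to both genotypes. Deviations of same-numbered arrays correlated over all genes at −0.120 to 0.0267 among livers and −0.0232 to 0.112 among hepatocytes, and over the 33 members at 0.298 to 0.513 and 0.179 to 0.382, so that whether the numbers pair the preparations on these genes is not settled. The mean of all probe sets of a gene and array weights changed no member call.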
